A study of Gallus gallus with 24 samples.

Results

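The genes described here encode the potassium, sodium, calcium and chloride channels of chicken skeletal muscle, with the subunits that share their gene names. Members were all rows of the expression table whose symbol begins with KCN, SCN and a digit, CACN, CLCN, BEST and a digit, or ANO and a digit, and that reached 1 FPKM in at least 4 libraries. FPKM is a fragment number scaled to transcript length and to the reads mapped in the library. Of 119 rows with such a symbol, 50 passed and 69 did not, and the 50 are set among 10944 genes that passed the same filter. The 69 were detected in at least 1 library each, 62 of them never at 1 FPKM and 7 in 1 to 3 libraries.

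The RNA came from Guangyuan Grey hens, and 6 groups of 4 libraries were compared. Soleus (SOL), a leg muscle with a mixture of oxidative and glycolytic fibres, and pectoralis major (PEM), the mostly fast glycolytic breast muscle, were each sampled in hens on normal feed (CONT) and in hens fed high fat for 15 days (SHFD) or for 60 days (LHFD). The 270 hens were 150 days old at the start, and 9 birds per diet were killed at 210 days of age after 12 h of fasting. Both muscles were cut from the same birds, a block from the skin side of PEM and one from the widest part of SOL. The 4 libraries of a group are described as biological replicates; the labels do not say which bird gave which library or what the diets contained.

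A muscle fibre fires when sodium channels open, and the signal enters the fibre along the transverse tubules, where the L-type calcium channel acts as the voltage sensor that makes the sarcoplasmic reticulum release calcium. Potassium channels return the membrane to rest, inward rectifiers and tandem-pore leak channels hold it there, and in mammalian muscle the chloride channel ClC-1 carries most of the resting conductance. Bestrophins and some anoctamins are chloride channels opened by calcium, whereas other anoctamins move lipids or tether membranes.

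The tissue labels were checked against fibre markers. The mean level of 7 slow-fibre genes, as log2(FPKM + 1), was 9.86 to 11.91 in the SOL libraries and 1.12 to 3.37 in the PEM libraries. That of 3 fast-fibre genes was 8.94 to 11.55 in SOL and 13.27 to 13.56 in PEM. In each diet 1 SOL library had a higher slow-fibre than fast-fibre level: SOL SHFD 4 by 2.97, SOL CONT 3 by 0.91 and SOL LHFD 4 by 0.51, while the other 9 SOL libraries had a lower one. PEM CONT 2 and PEM LHFD 1 stood apart from other PEM libraries, with macrophage marker levels of 4.06 and 3.31 against 1.71 to 2.29 in the other 10. Genes at 1 FPKM or more numbered 9285 to 10590 per library.

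The channels most expressed in both muscles were few. ANO8, an anoctamin known in mammals to tether the endoplasmic reticulum to the plasma membrane, CACNG1, the gamma subunit of the muscle L-type calcium channel, and CACNA1S, its pore and voltage sensor, together held 60.6% to 71.2% of the 50 genes' summed FPKM in SOL libraries and 77.7% to 83.3% in PEM libraries. ANO8 had 51.8 to 334 (median 265) FPKM in SOL and 465 to 788 (median 629) FPKM in PEM. CACNG1 had 263 to 554 (median 387) FPKM in SOL and 424 to 731 (median 505) FPKM in PEM. These values are per transcript length, so the order of genes within a library can be read from them, except where annotated genes overlap. In RefSeq's GRCg7b annotation ANO8 overlaps GTPBP3 and a gene with no name, LOC112530451. The labels do not say whether the counting used strand, and without it reads of ANO8 and of these genes cannot be told apart. In that annotation 12 of the 48 channel genes that it holds overlap another protein-coding gene. At the lower end, 6 of the 50 had a median under 1 FPKM in SOL and 14 had one in PEM.

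Some channels known from muscle of other species were low or not listed. The pores CACNA1C and CACNA1H never exceeded 0.275 and 0.212 FPKM. KCNC4 stayed at or below 0.283 FPKM, KCNK5 at or below 0.719 FPKM and KCNMB1, the beta subunit of the large-conductance calcium-activated channel in smooth muscle, at or below 0.764 FPKM. CLCN2 reached 1 FPKM in 2 libraries, the highest value being 2.04 FPKM in SOL SHFD 4. CACNG6, KCNJ12 and KCNA7 have no row under those symbols and were not analysed here.

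The first question was which channel genes differ between a slow-containing and a fast muscle. More of them were called higher than lower in SOL. Counted over all 50, many calls fell in the potassium channels and their partners, which are also the largest part of the 50 by number. The sodium channel beta subunit SCN4B and the calcium channel pore CACNA1S were called too. The counts and medians over the 50 include genes that passed the filter only through the muscle where they are high. Many of these are potassium channels, and they are set apart below. Between SOL and PEM under CONT, 26 of the 50 were higher and 6 lower in SOL at an adjusted p under 0.05, against 50.7% of all genes tested. The same comparison gave 22 higher and 4 lower under SHFD, against 51.6% of all genes, and 23 higher and 4 lower under LHFD, against 43.8% of all genes. Among all genes 30.7% were higher and 20.0% lower under CONT, 26.5% and 25.1% under SHFD, and 28.9% and 14.9% under LHFD. The median difference of the 50 genes was 0.54, 0.38 and 0.62 on the log2(FPKM + 1) scale under CONT, SHFD and LHFD, beside 0.12, 0.04 and 0.14 for all genes tested. With quantile normalization the split of the calls was 23 higher and 7 lower under CONT, 19 and 6 under SHFD, and 19 and 7 under LHFD. Among all 10944 genes that setting gave 2429 higher and 3218 lower under CONT, 2466 and 3209 under SHFD, and 2130 and 2786 under LHFD.

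Across diets, 18 genes were called higher in SOL every time, 4 were called lower every time and 15 were called in no diet. No share of all genes tested is given for these counts, so they are a description and not a result about channels. The 12 SOL and 12 PEM libraries did not overlap for 18 of the 50 genes, 16 higher and 2 lower in SOL, against 17.6% of all genes tested, 9.99% higher and 7.6% lower. For 9 genes every library at 1 FPKM was a SOL library and for KCNK1 every such library was a PEM library. Those 10 passed the filter only through the muscle where they are high, which favoured a difference, so their values and calls are a description and support nothing. The same holds for their lack of overlap. The 18 genes without overlap include KCNC1, KCND2, KCNF1, KCNH6, KCNJ5 and KCNK15, higher in SOL, and KCNK1, lower. The count of 18 is therefore a description too and is not read as a result about channels. Of the other 40, 17 were higher and 5 lower in SOL under CONT, 13 and 3 under SHFD, and 17 and 3 under LHFD. The 40 still hold KCNC2 and KCNN3, which reached 1 FPKM in 12 and 5 SOL libraries but in 2 and 1 PEM libraries. They too met the 4-library rule through SOL, so their calls are a description. The counts over the 40 are therefore not free of that selection. These counts stand beside 50.7%, 51.6% and 43.8% of all genes called in either direction under CONT, SHFD and LHFD. In bulk tissue, fewer cells of a type and less RNA per cell cannot be told apart.

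**Figure D1:**
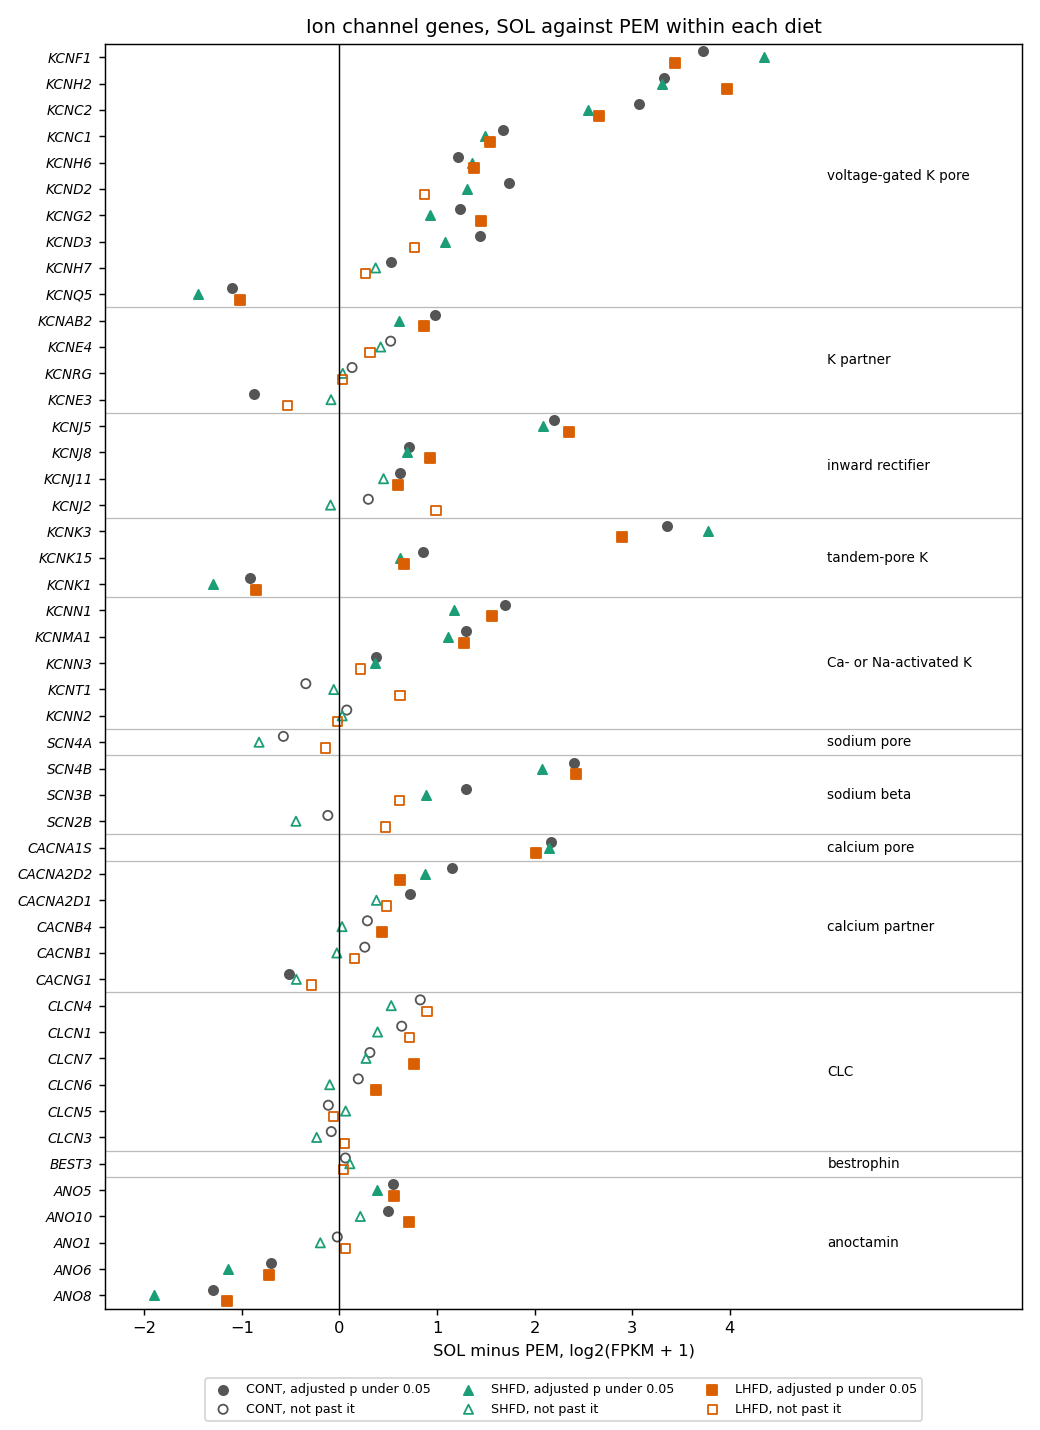
Channel genes, grouped by family from top to bottom, with the SOL minus PEM difference on the log2(FPKM + 1) scale on the horizontal axis; circles stand for CONT, triangles for SHFD and squares for LHFD, filled at a limma adjusted p under 0.05. The voltage-gated potassium pores KCNF1, KCNH2 and KCNC2 and the tandem-pore KCNK3 lie farthest to the right, at 2.55 to 4.35, and ANO8 farthest to the left, at -1.90 under SHFD.

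Of 11 voltage-gated potassium pores, 9 were higher and 1 was lower in SOL under CONT, 8 and 1 under SHFD, and 6 and 1 under LHFD. Of these 11, KCNC1, KCND2, KCND3, KCNF1 and KCNH6 reached 1 FPKM in SOL libraries only. Among the other 6, 4 were higher and 1 lower under CONT, 3 and 1 under SHFD, and 3 and 1 under LHFD. The 6 include KCNC2, which met the filter through SOL, so its calls within these counts are a description. Both sets of counts stand beside 30.7% of all genes tested higher and 20.0% lower under CONT. The shares of all genes were 26.5% and 25.1% under SHFD, and 28.9% and 14.9% under LHFD. KCNF1 (ENSGALG00000016448), a silent subunit that in mammals forms channels only together with Kv2 pores, was at or below 0.149 FPKM in PEM. SOL libraries had 6.86, 11.3, 26.1 and 14.9 FPKM under CONT, 28.1, 6.09, 22 and 40.2 FPKM under SHFD and 7.43, 5.96, 7.25 and 29.3 FPKM under LHFD. PEM libraries had 0.0874, 0.0258, 0.149 and 0.0656 FPKM under CONT, 0, 0.0205, 0.0269 and 0.0791 FPKM under SHFD and 0.0306, 0.0265, 0 and 0.00768 FPKM under LHFD. All 12 SOL values lay above all 12 PEM values, 2 of which were listed at 0. The difference on the log2(FPKM + 1) scale was 3.72 under CONT, 4.35 under SHFD and 3.44 under LHFD. With a pseudocount of 0.1 in place of 1 it was 6.23, 7.27 and 6.43, since the addition of 1 understates differences of genes that are low in one muscle.

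KCNH2 (ENSGALG00000042836), the pore of the rapid delayed rectifier that repolarizes the mammalian heart, was the most expressed voltage-gated potassium pore in SOL. Its SOL values were 38.1, 29.6, 28.6 and 39.7 FPKM under CONT, 31.3, 44.3, 28.7 and 25.7 FPKM under SHFD and 34.5, 47.6, 48.2 and 34.2 FPKM under LHFD. Its PEM values were 1.28, 1.5, 5.44 and 2.83 FPKM under CONT, 3.99, 2.47, 1.52 and 1.8 FPKM under SHFD and 3.36, 0.92, 0.993 and 1.92 FPKM under LHFD. The muscles did not overlap, the lowest SOL library having 25.7 FPKM and the highest PEM library 5.44 FPKM. Its log2 difference was 3.33 under CONT, 3.30 under SHFD and 3.97 under LHFD (adjusted p 9.38e-09, 1.16e-08 and 7.98e-10). KCNH6, a close relative, ranged over 1.06 to 2.99 (median 1.71) FPKM in SOL and 0 to 0.195 (median 0.0729) FPKM in PEM, again without overlap. KCNH7, the remaining relative, overlapped between muscles and was called only under CONT, at a log2 difference of 0.53 ± 0.20 (SE; adjusted p = 0.0302). Without SOL CONT 2, SOL CONT 3, PEM CONT 1 or PEM CONT 3 the KCNH7 difference was 0.37, 0.50, 0.40 or 0.51, with an adjusted p of 0.132, 0.0688, 0.120 or 0.0645.

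The Kv3 pores, which open and close fast and allow repetitive firing in neurons, included KCNC2 and KCNC1, both called higher in SOL in every diet. KCNC2 had 5.53, 7.93, 13.8 and 7.03 FPKM in SOL and 0.0573, 0.0921, 0.052 and 0.134 FPKM in PEM under CONT, and no SOL library of any diet overlapped a PEM library. Its highest PEM value was 1.28 FPKM, in PEM SHFD 3. KCNC2 reached 1 FPKM in 12 SOL and 2 PEM libraries and so met the filter through SOL. Its calls and lack of overlap are therefore a description. Its log2 difference was 3.07 under CONT, 2.55 under SHFD and 2.66 under LHFD, and that of KCNC1 was 1.68 under CONT, 1.49 under SHFD and 1.55 under LHFD.

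The Kv4 pores, which carry transient A-type current, were low in PEM, where KCND3 had 0.0152 to 0.877 (median 0.423) FPKM. KCND2 had 0.789, 1.54, 7.41 and 2.21 FPKM in SOL under CONT, 3.05, 0.555, 1.18 and 1.94 FPKM under SHFD and 0.454, 0.252, 0.275 and 3.78 FPKM under LHFD. It was listed at 0 in 11 of 12 PEM libraries and at 0.0682 FPKM in the other, PEM SHFD 2. The highest KCND2 values of the CONT and LHFD groups came from SOL CONT 3 and SOL LHFD 4, the libraries with the highest slow-fibre marker level in those groups, whereas in the SHFD group SOL SHFD 1 had the highest KCND2 value and SOL SHFD 4 the highest marker level. KCND2 was called under CONT and SHFD but not under LHFD (adjusted p = 0.0765). KCND3 followed the same calls, with a log2 difference of 1.45 under CONT, 1.08 under SHFD and 0.77 under LHFD. Under SHFD the KCND3 call was lost on leaving out SOL SHFD 1 (1.02, adjusted p = 0.0664), SOL SHFD 4 (0.79, 0.122), PEM SHFD 2 (1.05, 0.0580), PEM SHFD 3 (1.02, 0.0658) or PEM SHFD 4 (1.04, 0.0626). Quantile normalization and a fit with no expression filter lost this call too.

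KCNG2, another silent subunit, was 4.85 to 11.7 (median 6.8) FPKM in SOL and 1.45 to 6.14 (median 2.17) FPKM in PEM and was called higher in every diet. KCNQ5, a pore of the slow M-type current, went the other way. In SOL it had 1.43, 0.602, 1.44 and 2.65 FPKM under CONT, 1.81, 1.46, 1.91 and 0.622 FPKM under SHFD and 2.12, 1.94, 3.97 and 0.759 FPKM under LHFD. In PEM it had 3.56, 2.55, 8.64 and 3.71 FPKM under CONT, 9.42, 5.7, 7 and 2.24 FPKM under SHFD and 4.41, 5.25, 5.71 and 4.88 FPKM under LHFD. PEM and SOL did not overlap under SHFD or LHFD, whereas under CONT the highest SOL library lay just above the lowest PEM library. The log2 difference was -1.10 under CONT, -1.45 under SHFD and -1.01 under LHFD (adjusted p 0.0116, 0.00159 and 0.0222). Without PEM CONT 3 the CONT value was -0.81 (adjusted p = 0.0604), and without SOL LHFD 4 or PEM LHFD 3 the LHFD value was -0.76 or -0.96 (adjusted p = 0.0958 or 0.0521).

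**Figure D2:**
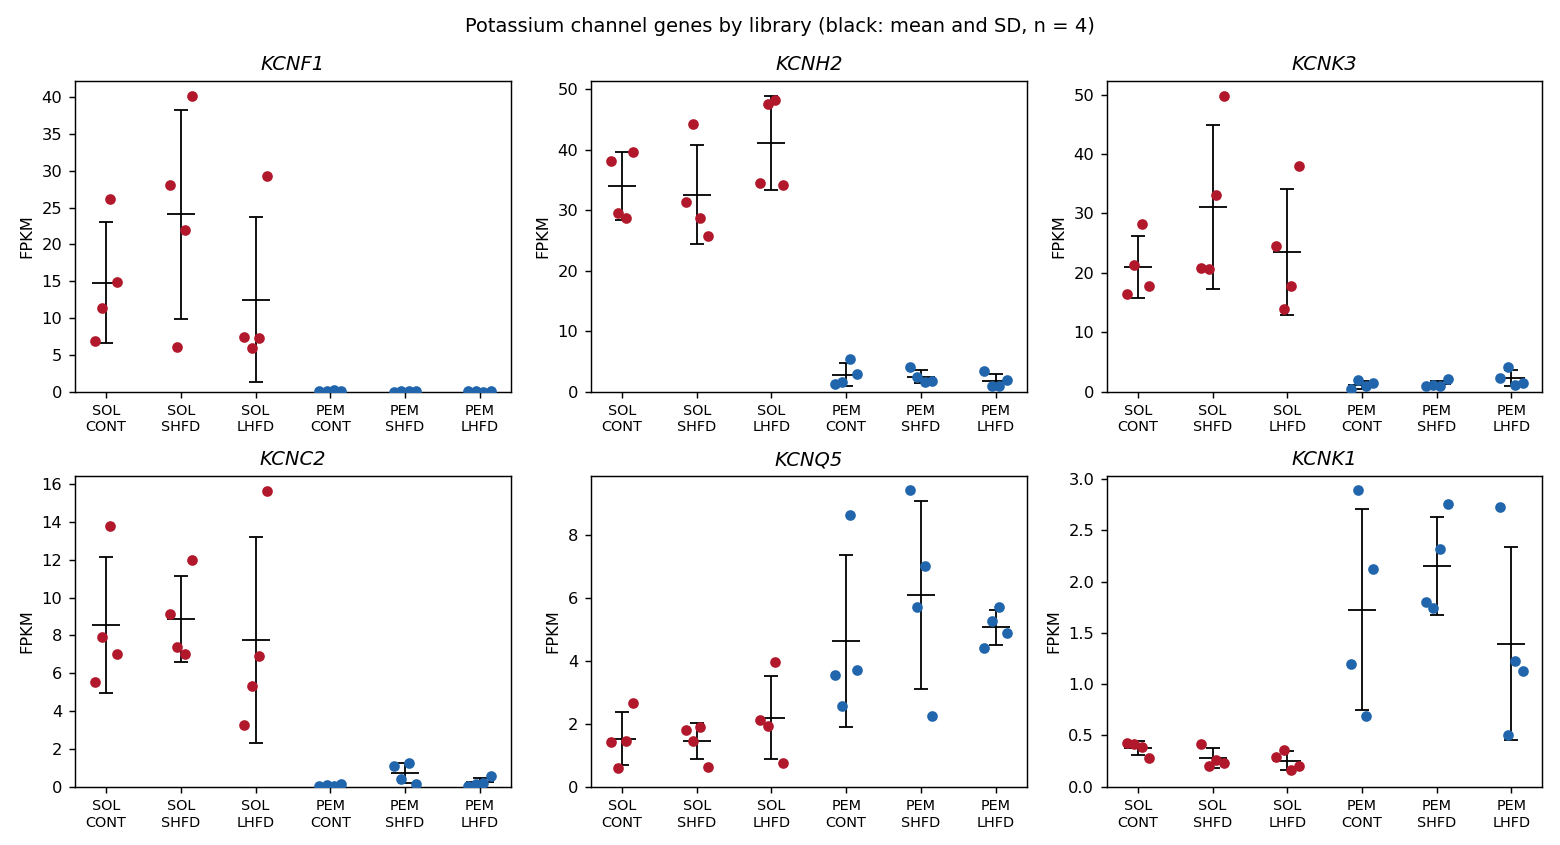
FPKM of 6 potassium channel genes in each library (dots) of the 6 muscle-by-diet groups, with the group mean and SD in black (n = 4). KCNF1, KCNH2, KCNK3 and KCNC2 have all SOL libraries above all PEM libraries; KCNK1 has all PEM libraries above all SOL libraries, and KCNQ5 overlaps.

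The tandem-pore leak channels split by gene. KCNK3 (ENSGALG00000042705), an acid-sensitive background channel, had 16.5, 21.3, 28.2 and 17.8 FPKM in SOL and 0.444, 2, 0.884 and 1.39 FPKM in PEM under CONT. Under SHFD it had 20.8, 20.6, 33.1 and 49.8 FPKM in SOL and 0.874, 1.03, 0.954 and 2.07 FPKM in PEM, and under LHFD 24.6, 13.8, 17.7 and 38 FPKM in SOL and 2.31, 4.08, 1.14 and 1.47 FPKM in PEM. The muscles did not overlap in any diet, and the log2 difference was 3.36 under CONT, 3.78 under SHFD and 2.90 under LHFD. KCNK15, from the same subfamily, was low in both muscles, at 0.721 to 1.36 (median 0.942) FPKM in SOL and 0.0704 to 0.501 (median 0.183) FPKM in PEM, and was called higher in every diet. KCNK1, a weakly conducting channel also found in endosomes, was the reverse, at 0.165 to 0.425 (median 0.286) FPKM in SOL and 0.503 to 2.89 (median 1.77) FPKM in PEM. Its log2 difference was -0.92 under CONT, -1.30 under SHFD and -0.86 under LHFD, given as a description since KCNK1 passed the filter through PEM alone.

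Among inward rectifiers, KCNJ5, which with KCNJ3 forms the acetylcholine-gated channel of the atrium, was found at 1 FPKM in SOL only. It had 4.83, 1.91, 15.1 and 2.01 FPKM in SOL under CONT, 5.21, 1.34, 1.87 and 13.9 FPKM under SHFD and 4.55, 9.69, 2.59 and 6.27 FPKM under LHFD. The PEM libraries ranged over 0.0462 to 0.358 (median 0.15) FPKM. KCNJ5 varied widely among SOL libraries, from SOL library to SOL library of the same diet, and still overlapped no PEM library. In the GRCg7b annotation it overlaps KCNJ1 and ARHGAP33.

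The ATP-sensitive potassium channel pairs a Kir6 pore with a sulphonylurea receptor and closes when ATP is high. Its pore KCNJ11 had 35.3, 25.8, 53.3 and 46.2 FPKM in SOL and 27.2, 24.5, 21.8 and 26.3 FPKM in PEM under CONT, with overlap. It was called higher under CONT (0.62 ± 0.20, SE; adjusted p = 0.0135) and LHFD (0.60 ± 0.20; 0.02) but not under SHFD. Under SHFD it was called with quantile normalization (0.54, adjusted p = 0.0308), with an equal nuclear-encoded sum (0.52, adjusted p = 0.0298) and without SOL SHFD 2 (0.58, adjusted p = 0.024), PEM SHFD 3 (0.56, adjusted p = 0.0341) or SOL CONT 2 (0.45, adjusted p = 0.0391). The replicate number as a block gave a KCNJ11 call under SHFD too. Without SOL CONT 3 the CONT difference was 0.47 (adjusted p = 0.0638), and without SOL LHFD 4 or PEM LHFD 2 the LHFD difference was 0.48 or 0.46 (adjusted p = 0.0757 or 0.0852). Quantile normalization, which added the KCNJ11 call under SHFD, lost the one under LHFD. ABCC8, the receptor SUR1, was called higher in SOL in every diet, with 6.13 ± 1.23 FPKM in SOL and 1.52 ± 0.309 FPKM in PEM under CONT (SD, n = 4 each). KCNJ8, the Kir6.1 pore known from vascular smooth muscle, was higher in SOL in every diet (0.72 under CONT, 0.69 under SHFD and 0.92 under LHFD), but under quantile normalization its calls under CONT and SHFD were lost (adjusted p = 0.113 under CONT). The summed level of 10 smooth muscle and pericyte markers was 251.7 to 1065 FPKM in SOL and 104.7 to 152.5 FPKM in PEM, and 8 of 10 were called higher in SOL under CONT. That of 8 endothelial markers was 99.33 to 164.1 FPKM in SOL and 41.25 to 85.99 FPKM in PEM, all 8 called higher. Under CONT 30.7% of all genes tested were called higher, beside these counts for the 2 cell types. The part of these cells in the KCNJ8 result was not tested. KCNJ2, the main inward rectifier of the fibre membrane, overlapped widely at 6.99 to 36.3 (median 20.1) FPKM in SOL and 6.51 to 27.5 (median 13.1) FPKM in PEM and was called in no diet. Under LHFD its log2 difference was 0.99 ± 0.41 (SE; adjusted p = 0.0549), and it was called higher without SOL LHFD 4 (1.40, 0.00695), SOL SHFD 2 (0.0413), SOL SHFD 4 (0.0388) or PEM SHFD 4 (0.0495), the last 3 through the spread alone.

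Of the calcium-activated potassium channels, KCNMA1, the large-conductance pore, and KCNN1, a small-conductance pore, were higher in SOL in every diet and did not overlap. KCNMA1 had 6.26, 5.31, 4.29 and 6.04 FPKM in SOL and 1.7, 1.95, 1.44 and 1.4 FPKM in PEM under CONT, and its log2 difference was 1.30 under CONT, 1.11 under SHFD and 1.27 under LHFD. KCNN1 had 11.3, 15.3, 9.84 and 11.7 FPKM in SOL and 4.32, 3.61, 2.75 and 1.69 FPKM in PEM, with a log2 difference of 1.70 under CONT, 1.17 under SHFD and 1.57 under LHFD. KCNN3, which denervated mammalian muscle is known to make, reached 1 FPKM in 5 SOL libraries and 1 PEM library. It met the filter through SOL, so its calls are a description. It was called under CONT and SHFD at 0.37 and 0.36, and both calls were lost under quantile normalization (0.00 and 0.12). Single libraries also ended them: SOL CONT 3 (0.34), SOL CONT 4 (0.31) and PEM CONT 1 (0.31) under CONT, and SOL SHFD 4 (0.29) and PEM SHFD 2 (0.34) under SHFD. A fit of only the groups compared ended the CONT call too. KCNN2 had 0.329 to 1.1 (median 0.549) FPKM in SOL and 0.346 to 1.08 (median 0.593) FPKM in PEM and was called in no diet. The sodium-activated pore KCNT1 was called in no diet between muscles, but was called higher under LHFD without SOL LHFD 3 (0.91, adjusted p = 0.011) or SOL SHFD 4 (0.62, adjusted p = 0.0455).

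Partners of potassium pores moved in both directions. KCNAB2, a cytosolic beta subunit, was higher in SOL in every diet, 0.98 under CONT, 0.61 under SHFD and 0.87 under LHFD. In PEM it was 0.73, 2.89, 0.789 and 0.991 FPKM under CONT, and the high value was that of PEM CONT 2. Under SHFD, leaving out PEM SHFD 2 gave 0.48 (adjusted p = 0.0510). KCNE3, a small single-span subunit, was lower in SOL under CONT (-0.87 ± 0.35, SE; adjusted p = 0.0447), with 2.79, 1.83, 2.33 and 0.971 FPKM in SOL and 3.62, 7.71, 5.62 and 1.95 FPKM in PEM. Its call was lost in 16 of 32 alternatives, among them leaving out SOL CONT 2 (-0.86), SOL CONT 3 (-0.94), SOL CONT 4 (-0.69), PEM CONT 1 (-0.94), PEM CONT 2 (-0.63) or PEM CONT 3 (-0.76). With an unmoved value it was also lost, at an adjusted p of 0.0503 to 0.0506, without SOL LHFD 4, SOL SHFD 3, PEM LHFD 2 or PEM LHFD 3, which enter only the estimate of the spread. The macrophage marker sum was 674 FPKM in PEM CONT 2 and 117 to 151 FPKM in the other PEM CONT libraries, and its part in these values was not tested. KCNE4 and KCNRG were called in no diet, though without PEM CONT 2 KCNE4 was called higher under CONT (0.70, adjusted p = 0.0285).

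A sodium pore and its beta subunits gave a second contrast. SCN4A (ENSGALG00000034427), the adult skeletal muscle sodium channel, was called in no diet with all libraries fitted. SOL libraries had 25.5, 34.9, 21.1 and 39.7 FPKM under CONT, 18.2, 33.9, 31.5 and 5.19 FPKM under SHFD and 36.8, 31.6, 37.2 and 21 FPKM under LHFD. PEM libraries had 42.9, 38, 56.1 and 42 FPKM under CONT, 43.4, 30.8, 29 and 30.3 FPKM under SHFD and 34.2, 27.4, 38 and 38.2 FPKM under LHFD. The log2 difference was -0.57 under CONT, -0.82 under SHFD and -0.14 under LHFD (adjusted p 0.188, 0.0592 and 0.777), and the 95% interval under CONT was -1.32 to 0.17. SOL SHFD 4 had the lowest value of all libraries. The absence of a call rests on single libraries: without SOL SHFD 4, which enters the CONT comparison through the shared estimate of the spread, SCN4A was called lower in SOL under CONT (-0.57, adjusted p = 0.0347), and it was called lower under SHFD without SOL SHFD 2 (-1.11, adjusted p = 0.0146) or SOL SHFD 3 (-1.08, adjusted p = 0.0209). With only the compared groups fitted, it was called lower under CONT (adjusted p = 0.0452).

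Of the beta subunits, which set the gating and surface level of the pores, SCN4B differed in every diet. It had 38, 24.4, 23.4 and 25 FPKM in SOL and 6.46, 4.84, 3.72 and 2.89 FPKM in PEM under CONT, without overlap in any diet, and its log2 difference was 2.40 under CONT, 2.07 under SHFD and 2.42 under LHFD. Set against SCN4A within each library, the ratio of SCN4B to SCN4A was 0.536 to 1.95 in SOL and 0.0663 to 0.234 in PEM. SCN3B reached 1 FPKM in SOL libraries only, so its values and calls between muscles are a description and support nothing. It was called under CONT and SHFD (1.30 ± 0.32 and 0.89 ± 0.32, SE). Under SHFD its SOL values were 0.188, 0.563, 0.552 and 5.18 FPKM, and without SOL SHFD 4 the difference was 0.36 (adjusted p = 0.0872). Quantile normalization and a fit of only the groups compared lost the SHFD call too. SCN2B had 3.37 to 30.1 (median 13.4) FPKM in SOL and 7.43 to 23 (median 14.2) FPKM in PEM and was called in no diet.

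The L-type calcium channel of the transverse tubule showed unequal change among its subunits. CACNA1S (ENSGALG00000037744) was about 4 times as high in SOL. Its SOL values were 359, 299, 308 and 324 FPKM under CONT, 253, 331, 271 and 345 FPKM under SHFD and 311, 251, 302 and 289 FPKM under LHFD. Its PEM values were 66.8, 65.6, 67.5 and 83.8 FPKM under CONT, 78.4, 64.7, 57.1 and 67 FPKM under SHFD and 78.4, 64.8, 75.7 and 63.5 FPKM under LHFD. The muscles were far apart in every diet, and the mean over 12 libraries was 4.37 times as high in SOL as in PEM. Its log2 difference was 2.17 under CONT, 2.15 under SHFD and 2.02 under LHFD (adjusted p 1.07e-11, 1.29e-11 and 4.59e-11). CACNG1 was lower in SOL under CONT (-0.52 ± 0.20, SE; adjusted p = 0.0352) and not called in the other diets, though without SOL SHFD 3 it was called under SHFD (-0.56, adjusted p = 0.0322). The CONT call was lost in 10 of 32 alternatives. Among them was the omission of SOL CONT 2 (-0.50), SOL CONT 3 (-0.37), PEM CONT 1 (-0.54), PEM CONT 2 (-0.50) or PEM CONT 4 (-0.38). An equal nuclear-encoded sum, no expression filter and a fit of only the groups compared lost it as well. Quantile normalization went the other way, with -0.87 under CONT and calls under SHFD (-0.80, adjusted p = 0.00335) and LHFD (-0.52, adjusted p = 0.0486) too. CACNB1, the beta subunit that brings the pore to the tubule, was called in no diet between muscles, at 17.9 to 32 (median 21.6) FPKM in SOL and 13.9 to 32.7 (median 21.4) FPKM in PEM, except that with an equal nuclear-encoded sum it was called higher under CONT (0.39, adjusted p = 0.0458).

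Within each library the ratio of CACNA1S to CACNG1 was 0.561 to 1.31 in SOL and 0.115 to 0.163 in PEM, and that of CACNA1S to CACNB1 was 8.94 to 19.3 in SOL and 1.95 to 4.82 in PEM. Neither ratio overlapped between muscles. These 2 ratios and that of SCN4B to SCN4A were chosen after their values were seen and are given as a description, with no test. CACNA2D1, the alpha2delta subunit, was higher in SOL under CONT (0.73 ± 0.20, SE; adjusted p = 0.00443). CACNA2D2, its less expressed relative, was called in every diet and did not overlap, at 2.25 to 6.27 (median 2.88) FPKM in SOL and 0.768 to 1.63 (median 1.22) FPKM in PEM, though its LHFD call was lost under quantile normalization (0.40, adjusted p = 0.0609). CACNB4 was called under LHFD alone at an adjusted p of 0.0492, and 22 of 32 alternatives lost that call. Leaving out any PEM LHFD library but the first gave 0.35 to 0.46, leaving out SOL LHFD 1, SOL LHFD 2 or SOL LHFD 4 gave 0.36 to 0.45, and 11 libraries of the other diets ended it through the spread alone, at an adjusted p of 0.0517 to 0.0558.

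**Figure D3:**
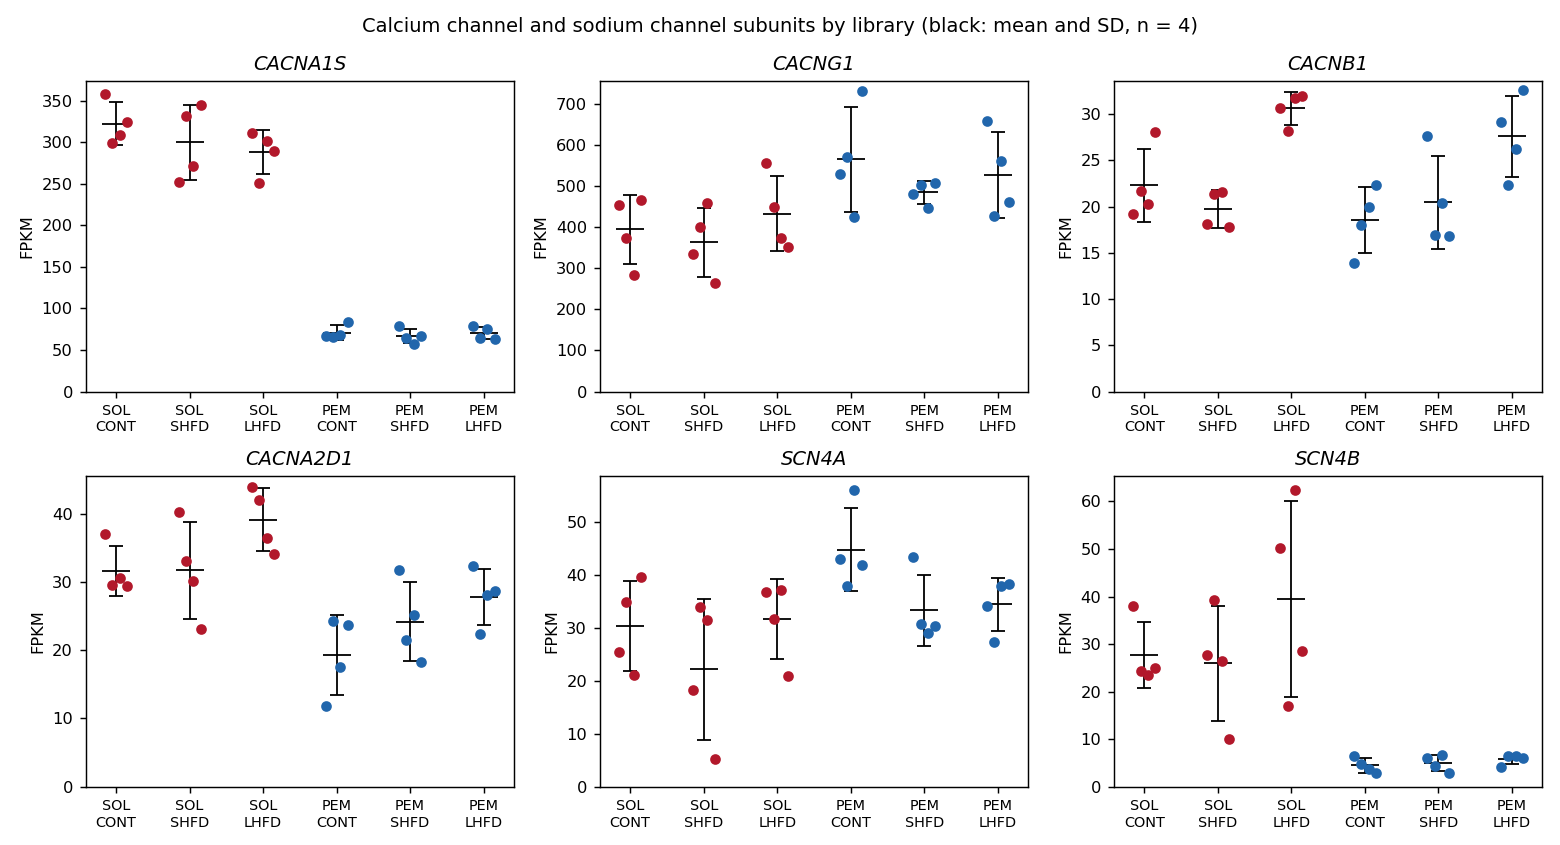
FPKM of 4 calcium channel subunits, a sodium pore and a sodium beta subunit in each library (dots) of the 6 groups, with the group mean and SD in black (n = 4). CACNA1S lies at 251 to 359 FPKM in SOL and 57.1 to 83.8 FPKM in PEM, while CACNB1 and SCN4A overlap between muscles and SCN4B has all SOL libraries above the PEM libraries.

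The CLC family had few calls. With limma, 0 of its 6 members were called under CONT and SHFD, where 1 and 0 had an unadjusted p under 0.05, and 2 were called higher in SOL under LHFD, where 3 had one. Of all genes tested, 50.7%, 51.6% and 43.8% were called under CONT, SHFD and LHFD. CLCN1, the fibre's main chloride channel, had 5.25 to 34.1 (median 22.1) FPKM in SOL and 8.77 to 21.1 (median 11.9) FPKM in PEM, with a log2 difference of 0.64 under CONT, 0.39 under SHFD and 0.72 under LHFD and 95% intervals that all held 0. This rests on SOL SHFD 4: without that library CLCN1 was called higher in SOL under CONT (0.64, adjusted p = 0.0499), SHFD (0.94, 0.0104) and LHFD (0.72, 0.0332), and without it, SOL LHFD 4 and SOL CONT 3 the values were 0.79, 0.94 and 0.95 (adjusted p = 0.0143, 0.00473 and 0.00580). With only the compared groups fitted, CLCN1 was called under CONT (adjusted p = 0.0130). CLCN7, the lysosomal exchanger that works with OSTM1, had 5.94, 5.17, 6.45 and 6.34 FPKM in SOL and 2.9, 3.11, 3.64 and 2.8 FPKM in PEM under LHFD, without overlap (log2 difference 0.76 ± 0.14, SE; adjusted p = 1.22e-04). The CLCN6 call under LHFD was lost under quantile normalization (0.14, adjusted p = 0.373). CLCN3, CLCN4 and CLCN5, which serve endosomes, were called in no diet. Without SOL LHFD 3 (1.12, adjusted p = 0.0407) or PEM LHFD 3 (1.28, adjusted p = 0.0121) CLCN4 was called higher under LHFD, and without PEM CONT 3 under CONT (1.09, adjusted p = 0.0376). CLCN5 was called lower under CONT (-0.39, adjusted p = 8.36e-04) and LHFD (-0.30, adjusted p = 0.00817) with quantile normalization.

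The anoctamins went both ways. ANO8 (ENSGALG00000034615) was lower in SOL in every diet. In SOL it had 287, 247, 192 and 284 FPKM under CONT, 193, 300.1, 244 and 51.8 FPKM under SHFD and 334, 304, 313 and 150.1 FPKM under LHFD. In PEM it had 642, 519, 664 and 652 FPKM under CONT, 752, 465, 617 and 683 FPKM under SHFD and 502, 608, 483 and 788 FPKM under LHFD. No SOL library reached the lowest PEM library. The annotated overlap of ANO8 with other genes, given above, limits these values too. The log2 difference was -1.30 under CONT, -1.90 under SHFD and -1.15 under LHFD (adjusted p 0.00536, 1.98e-04 and 0.0148), and under LHFD it was -0.88 without SOL LHFD 4 (adjusted p = 0.0676), and without PEM LHFD 4 its adjusted p was 0.0503. ANO6, a calcium-activated lipid scramblase, was also lower in SOL, at 10.8 to 24.4 (median 15.6) FPKM in SOL and 21.2 to 43.2 (median 28.1) FPKM in PEM, with a log2 difference of -0.70 under CONT, -1.14 under SHFD and -0.73 under LHFD. ANO5, whose loss causes a limb-girdle muscular dystrophy in humans, was higher in SOL without overlap, at 16.3 to 25.2 (median 19.2) FPKM in SOL and 10.8 to 15.8 (median 13.6) FPKM in PEM. Its log2 difference was 0.55 under CONT, 0.38 under SHFD and 0.56 under LHFD, and under SHFD it was 0.30 (adjusted p = 0.0619) without SOL SHFD 2. ANO10 was called higher under CONT and LHFD. ANO1, the classical calcium-activated chloride channel, was called in no diet.

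Within SOL, the values of these genes were read beside the fibre marker level of the library, with no test of a relation. In all 3 diets the SOL library with the highest slow-fibre level relative to fast-fibre level was also the highest of its 4 for 7 of 50 genes, among them KCNF1, KCNC2, KCNK3, KCND3, CLCN4 and KCNN2, against 7.71% of all genes tested. It was the lowest of its 4 in all 3 diets for CLCN1, SCN4A, ANO8, CACNG1, KCNJ2 and KCNH2, 6 of 50, against 4.63% of all genes. For KCNH2, which was higher in SOL than in PEM, the margin to the next SOL library was small. It had 28.6 against 29.6 FPKM under CONT, 25.7 against 28.7 FPKM under SHFD and 34.2 against 34.5 FPKM under LHFD. SOL SHFD 4, the extreme library, had 5.25 FPKM of CLCN1, against 23.7 to 30.9 FPKM in the other SOL SHFD libraries, and 51.8 FPKM of ANO8, against 193 to 300.1 FPKM in the others. Leaving out SOL SHFD 4, SOL LHFD 4 and SOL CONT 3 together gave 30 calls between muscles under CONT, 25 under SHFD and 27 under LHFD, beside 32, 26 and 27 with them. Of these calls 28, 24 and 24 were shared with the full set of libraries.

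Beside the changes given with each gene, the omission of those 3 SOL libraries gave a CLCN7 call under CONT (0.37, adjusted p = 0.0434). An SCN3B call came under LHFD (0.59, adjusted p = 0.0124). The same omission lost the calls of KCNJ11, KCNE3, CACNG1 and KCNH7 under CONT. Under SHFD the calls of KCNN3 (0.29, adjusted p = 0.0838) and SCN3B were lost, and under LHFD those of KCNJ11, KCNQ5 and CACNB4. Without PEM CONT 2 and PEM LHFD 1, the PEM libraries with high macrophage marker levels, KCNE4 was called higher in SOL under CONT (0.70, adjusted p = 0.011) and LHFD (0.57, adjusted p = 0.039). KCNN3 (0.31, adjusted p = 0.0372) and CACNA2D1 (0.55, adjusted p = 0.0341) were then called under LHFD and CACNB4 under CONT (0.43, adjusted p = 0.0349), while CACNG1 (-0.50, adjusted p = 0.0534) and KCNE3 (-0.63, adjusted p = 0.154) lost their CONT calls.

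**Figure D4:**
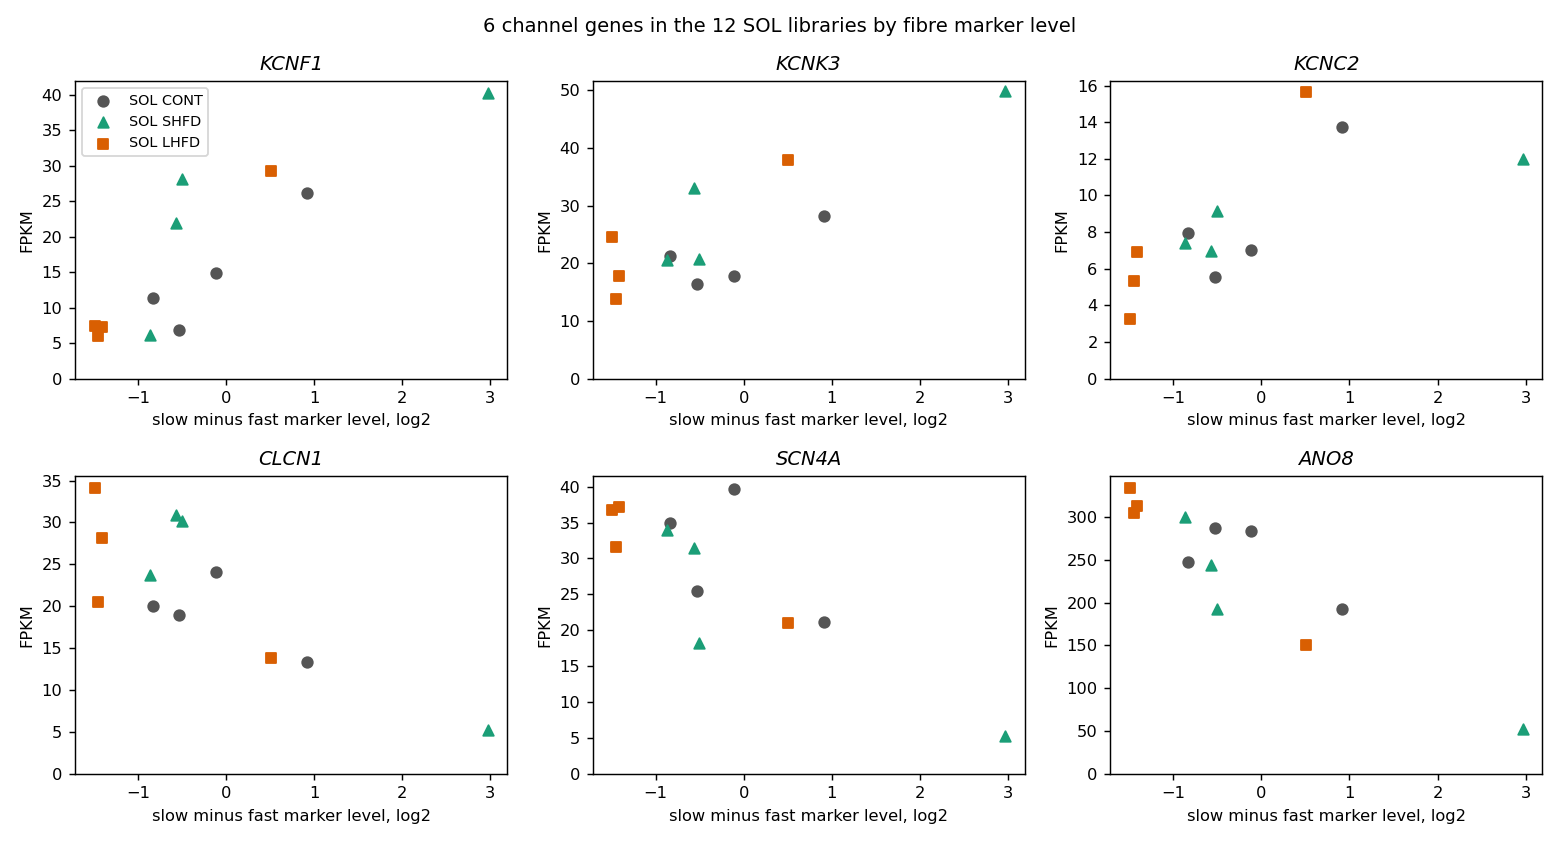
FPKM of 6 channel genes (vertical axes) in the 12 SOL libraries against the slow-fibre minus fast-fibre marker level on the log2 scale (horizontal axes), with circles for CONT, triangles for SHFD and squares for LHFD. SOL SHFD 4 lies at 2.97, where CLCN1 has 5.25 FPKM, SCN4A 5.19 FPKM and KCNF1 40.2 FPKM.

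The other question was what the high-fat diets changed. BEST3 (ENSGALG00000010029), the only bestrophin above the filter and a chloride channel gene known from heart and skeletal muscle of mice, was higher after the long diet in both muscles. In SOL it had 43.3, 37.8, 30.9 and 40 FPKM under LHFD, against 10.4, 14.1, 16.1 and 16 FPKM under CONT. In PEM it had 31.1, 45.9, 36.6 and 34.2 FPKM under LHFD, against 15.8, 9.35, 10.4 and 20.3 FPKM under CONT. Every LHFD library of either muscle lay above every CONT library. The log2 difference, LHFD against CONT, was 1.37 ± 0.20 in SOL (SE; adjusted p = 0.00126) and 1.39 ± 0.20 in PEM (adjusted p = 6.96e-04). It stayed called under all 32 alternatives in both muscles, at 1.24 to 1.46 in SOL and 1.23 to 1.58 in PEM.

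The short diet did not give the same change in BEST3. SHFD libraries had 15.3, 17.2, 20.1 and 13.4 FPKM in SOL and 19.9, 14, 15.4 and 12.1 FPKM in PEM. Against CONT the log2 difference of SHFD was 0.21 ± 0.20 in SOL and 0.17 ± 0.20 in PEM (SE), neither called, with 95% intervals of -0.21 to 0.63 and -0.25 to 0.59. LHFD against SHFD was called in both muscles, at 1.16 ± 0.20 in SOL (adjusted p = 0.00688) and 1.22 ± 0.20 in PEM (adjusted p = 0.00891), with no overlap of libraries. In SOL this call had an adjusted p of 0.0530 without SOL SHFD 4, SOL LHFD 4 and SOL CONT 3 together. The 2 comparisons share the LHFD libraries.

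The LHFD effect on BEST3 in SOL minus that in PEM was -0.02 ± 0.29 (SE; 95% interval -0.61 to 0.58; adjusted p = 0.999). Both muscles were cut from the same birds, so they are not independent sets of hens. The SE and interval treat the libraries as independent. Between muscles BEST3 was called in no diet. Its mean was 38 ± 5.28 FPKM in SOL and 36.9 ± 6.4 FPKM in PEM under LHFD, and 14.2 ± 2.64 FPKM in SOL and 14 ± 5.06 FPKM in PEM under CONT (SD, n = 4 each). BEST3 overlaps RAB3IP in the GRCg7b annotation.

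**Figure D5:**
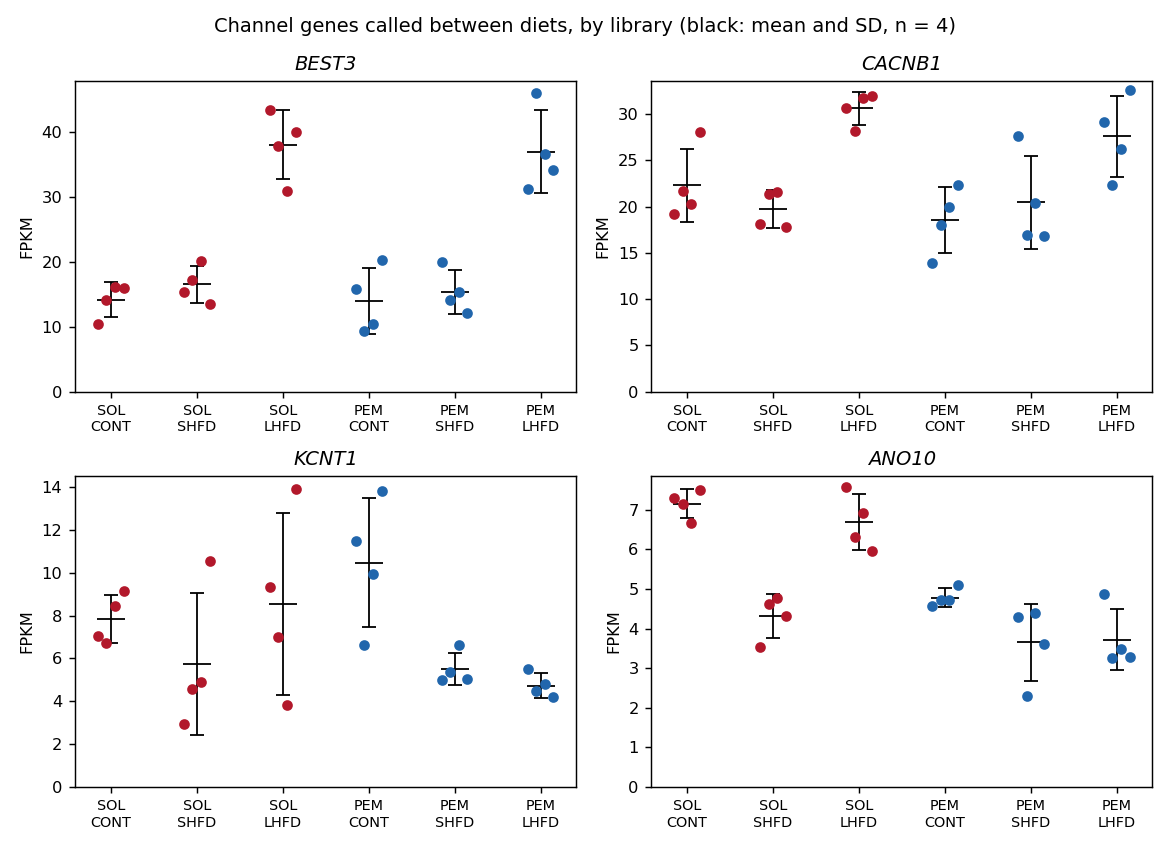
FPKM in each library (dots) by muscle and diet, in order of time on high fat, for the 4 channel genes called between diets, with the group mean and SD in black (n = 4). BEST3 lies at 30.9 to 45.9 FPKM in the LHFD libraries of both muscles and at or below 20.3 FPKM in all others.

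Few other channel genes were called between diets, and none of those calls held throughout. In PEM, LHFD against CONT gave 2 higher and 1 lower of 50, against 6.94% of all genes, 2.05% higher and 4.90% lower. Besides BEST3 these were CACNB1 and KCNT1. CACNB1 had 29.2, 22.4, 26.2 and 32.7 FPKM under LHFD and 13.9, 18, 19.9 and 22.4 FPKM under CONT, which lay next to each other without overlap, for a log2 difference of 0.56 ± 0.16 (SE; adjusted p = 0.0366). In SOL the same comparison gave 0.45 ± 0.16 (adjusted p = 0.232), with 30.7, 28.1, 31.7 and 32 FPKM under LHFD and 19.2, 21.7, 20.3 and 28.1 FPKM under CONT. The PEM call was lost in 10 of 32 alternatives, among them leaving out PEM LHFD 1 (0.53), PEM LHFD 3 (0.58), PEM LHFD 4 (0.47), PEM CONT 1 (0.43), PEM CONT 2 (0.55) or PEM CONT 3 (0.60), and it was lost without PEM CONT 2 and PEM LHFD 1 together (0.52, adjusted p = 0.112). CACNB1 overlaps LOC100858629 in the GRCg7b annotation.

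KCNT1 had 5.49, 4.46, 4.8 and 4.17 FPKM in PEM under LHFD and 11.5, 6.65, 9.94 and 13.8 FPKM under CONT, without overlap, for a log2 difference of -0.97 ± 0.29 (SE; adjusted p = 0.0443). The call was lost in 22 of 32 alternatives, where the value stayed between -1.03 and -0.82, its adjusted p reaching 0.116 under quantile normalization. These included leaving out any PEM LHFD library or PEM CONT 1, PEM CONT 3 or PEM CONT 4 (adjusted p = 0.0571 to 0.110). The call was also lost through the estimate of the spread alone, at an adjusted p of 0.0501 to 0.0536, without any SOL CONT library, SOL LHFD 1, SOL LHFD 2, SOL SHFD 2, SOL SHFD 3, PEM SHFD 2, PEM SHFD 3 or PEM SHFD 4. In SOL, KCNT1 under LHFD was 9.32, 7.02, 3.82 and 13.9 FPKM and under CONT 7.06, 6.73, 8.44 and 9.13 FPKM, overlapping. The LHFD effect in SOL minus that in PEM had an unadjusted p under 0.05 for 3 channel genes, KCNT1, CLCN7 and CACNA2D2, and an adjusted p of 0.781 for each, and no gene of the table was called.

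In SOL, SHFD against CONT gave 1 lower gene, ANO10, against 0.557% of all genes (0.164% higher, 0.393% lower). Without SOL SHFD 4, SCN3B was called lower as well (-1.05, adjusted p = 0.00842), its SHFD values being those given above. ANO10 had 3.54, 4.63, 4.77 and 4.33 FPKM under SHFD and 7.31, 7.16, 6.66 and 7.51 FPKM under CONT, without overlap, for a log2 difference of -0.62 ± 0.14 (SE; adjusted p = 0.0448). Its LHFD values were 7.59, 6.31, 6.93 and 5.97 FPKM. The call was lost in 18 of 32 alternatives, including the omission of SOL SHFD 1 (-0.55, adjusted p = 0.176), SOL SHFD 3 (-0.66) or any SOL CONT library (-0.65 to -0.60). Through the spread alone it was lost, at an adjusted p of 0.0503 to 0.0532, without SOL LHFD 1, SOL LHFD 2, SOL LHFD 3, PEM LHFD 2, PEM LHFD 3, PEM CONT 1 or PEM CONT 4. In PEM the same comparison gave -0.34 ± 0.14 (adjusted p = 0.257). BEST3 was the only channel gene called in SOL for LHFD against CONT, against 0.521% of all genes (0.228% higher, 0.292% lower), and for LHFD against SHFD, against 0.886% of all genes (0.621% higher, 0.265% lower). It was also the only one called in PEM for LHFD against SHFD, against 0.201% of all genes (0.119% higher, 0.0822% lower). Next in order for LHFD against SHFD in SOL were ANO10 (0.54 ± 0.14, SE; adjusted p = 0.0646), SCN2B (1.46 ± 0.37; 0.0646) and CACNB1 (0.61 ± 0.16; 0.0698), none of them called. SCN2B was called without SOL SHFD 2 (1.58, 0.0468), SOL SHFD 3 (1.71, 0.0426) or SOL CONT 2 (0.0378), CACNB1 without PEM SHFD 1 (0.0432), and ANO10 without PEM LHFD 1 (0.0469) or PEM SHFD 2 (0.0180). SCN2B had 30.1, 21, 24.6 and 23.1 FPKM in SOL under LHFD and 8.05, 11, 14.6 and 3.37 FPKM under SHFD, without overlap.

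In PEM, SHFD against CONT gave no channel gene with limma, 4 having an unadjusted p under 0.05, against 1.07% of all genes called (0.539% higher, 0.530% lower). The smallest p values were those of KCNT1 (-0.79 ± 0.29, SE; adjusted p = 0.212), ANO10 and KCNE3 (-0.80 ± 0.35; 0.319). Without PEM CONT 2, KCNAB2 was called higher under SHFD (0.66, adjusted p = 0.0191) and under LHFD (0.54, 0.0215), and CACNA2D1 under LHFD (0.67, 0.0487). Without PEM CONT 4, KCNE3 was called lower under LHFD (-1.24, 0.0391). For the SHFD effect in SOL minus that in PEM, no channel gene had an unadjusted p under 0.05, against 0.00914% of all genes called. The smallest p values there were those of CLCN6 (-0.29 ± 0.15, SE), ANO6 (-0.44 ± 0.27) and KCNK15 (-0.24 ± 0.15).

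Genes that work with these channels were read from lists chosen with earlier results of these data known. Among 22 tested subunits and anchors outside the name rule, 9 were higher and 9 lower in SOL under CONT. CALM2, which encodes calmodulin, the calcium sensor of many channels, was lower in SOL, with 85.3 ± 13.2 FPKM in SOL and 529.8 ± 82.6 FPKM in PEM under CONT (SD, n = 4 each), and log2 differences of -2.62 under CONT, -2.68 under SHFD and -2.03 under LHFD. LRRC8B, a subunit of the volume-regulated anion channel, was lower (-1.19 ± 0.11, SE) and ABCC8 higher (1.49 ± 0.14). Of 5 tested genes of the sodium-potassium pump, 2 were higher, FXYD6 (1.74 ± 0.26) and ATP1B1 (1.45 ± 0.24). Of 14 genes of the neuromuscular junction, where motor nerves excite the fibre, 11 were higher and 1 lower in SOL, led by the acetylcholine receptor subunits CHRND (1.82 ± 0.24), CHRNG (1.90 ± 0.26) and CHRNA1 (2.56 ± 0.40) and by the esterase anchor COLQ (1.35 ± 0.20). Of 24 other cation and chloride channels, 11 were higher and 3 lower, with TRPV2 (0.82 ± 0.13), TMEM63B (0.80 ± 0.15) and ORAI1 (0.77 ± 0.15) higher and CLIC5 (-0.87 ± 0.17) lower. All these shares stand beside the 50.7% of all genes called.

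Between diets, 8 of 65 tested partner genes (12.3%) were called in PEM for LHFD against CONT, against 6.94% of all genes, and 1 of 65 (1.54%) was called in each of 3 other comparisons. These were LHFD against CONT in SOL, against 0.521% of all genes, and SHFD against CONT in PEM and in SOL, against 1.07% and 0.557%. In PEM under LHFD against CONT, RRAD, a small GTPase that restrains L-type calcium channels, was higher (3.40 ± 0.83, SE; adjusted p = 0.0159), with 34.5 ± 8.57 FPKM under LHFD and 5.37 ± 9.1 FPKM under CONT (SD, n = 4 each). Its lowest and highest values were 25.2 and 43.7 FPKM under LHFD and 0.353 and 19 FPKM under CONT, without overlap. RYR3, a calcium release channel (0.57 ± 0.15), TRPM7 (0.62 ± 0.13) and ATP1B1 (1.10 ± 0.24) were higher too. The ATP-gated channel P2RX5 (-1.33 ± 0.27), OSTM1 (-0.43 ± 0.09), LRRC8B (-0.45 ± 0.11) and TMEM175 (-0.47 ± 0.11) were lower. FXYD6 was lower in PEM under SHFD against CONT (-1.09 ± 0.26), COLQ in SOL under SHFD against CONT (-0.88 ± 0.20) and ABCC8 in SOL under LHFD against CONT (-0.63 ± 0.14; adjusted p = 0.0463). No partner gene was called for LHFD against SHFD in either muscle or for either difference of effects.

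Other cell types' markers were read beside these counts. Under CONT, markers higher in SOL numbered 3 of 6 for Schwann cells and nerve, 4 of 5 for adipocytes, 2 of 8 for fibroblasts, 1 of 8 for macrophages, 1 of 5 for red blood cells and 0 of 5 for lymphocytes with limma (0 at an unadjusted p under 0.05), and of 6 satellite cell and regenerating fibre markers 3 were higher and 1 lower. Of 3 general fibre markers 0 were higher and 1 lower. These marker counts stand beside 30.7% of all genes tested higher and 20.0% lower under CONT. The summed Schwann cell and nerve level was 35.32 to 53.83 FPKM in SOL and 19.01 to 33.87 FPKM in PEM, and NEFL and NEFM were listed at 0 in every PEM LHFD and PEM SHFD library. Their part in the channel results was not tested.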

How the data were processed

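Expression was measured by RNA sequencing of SOL and PEM in 24 libraries, 4 in each of 6 groups. The authors deposited FPKM values per gene (20780 rows, 12264 with a symbol). Per the labels' protocols, fastp filtered the reads, HISAT2 mapped them to the GRCg6a build of Ensembl, and StringTie v1.3.3b assembled and quantified transcripts. Cufflinks and DESeq2 appear, without versions or roles, per the submitters' processing notes. No read counts were used here, so the test planned for normalized values was taken. Low values were not whole multiples of a common step (4.29% within 0.02 of a whole ratio, 4.0% if uniform), so depth is unknown. FPKM summed to 474667 to 525731 per library. The mitochondrially encoded genes held 20.6% to 27.0% of that sum in SOL libraries and 10.4% to 17.3% in PEM libraries. With nuclear-encoded FPKM scaled to an equal sum in every library, the median SOL minus PEM difference of all genes under CONT was 0.23. In the main fit it was 0.12.

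The filter of 1 FPKM in 4 libraries left 10944 genes. Their log2(FPKM + 1) values entered 1 model in limma 3.58.1 (R 4.3.3) that had 6 group means, 18 residual degrees of freedom and a mean-variance trend. It held no term for the bird, though both muscles came from the same birds. All 11 comparisons were two-sided, with Benjamini-Hochberg adjustment over all genes tested and a threshold of 0.05; a gene past it is called higher or lower. Fold changes of low genes are understated on this scale. The fit was tested on simulated data. The tests and 32 alternatives cover normalization, pseudocount, filter, the libraries fitted, a replicate block and the omission of libraries.

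The channel genes, their families, the marker lists and the lists of partner genes were chosen with earlier results of these data known. Named with values were the largest called differences between muscles, all genes called between diets or the 3 smallest p values where there were none, and fixed genes of the fibre membrane; other channel genes are given by their ranges. Some genes are included in the counts but are not reported here by name or drawn in the figures, and they were left out of the search for libraries that stand apart. Annotated overlaps were read from RefSeq's GRCg7b gene table, which differs from the build of the files and was used for names and neighbours only. Replicates of 1 group agreed no more closely than a correlation of 0.9839, so none was counted as a repeat. Per-library values used pandas 2.3.3 and numpy 2.4.6.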

Additional observations from a re-analysis of the deposited data

Results flagged for a closer look

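Within a group of 4 libraries, 21 of 288 combinations of gene and group held 1 library that stood apart from the other 3 by Dixon's 95% criterion, or 7.3%, where chance gives about 1 in 20. SOL SHFD 4, the library with the highest slow-fibre marker level, had 4 of them and SOL LHFD 4 had 3.

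In SOL SHFD 4, CLCN1 was at 5.255 FPKM against 23.72 to 30.86 FPKM in the other libraries of its group, and ANO1 was at 3.147 FPKM against 6.569 to 6.809 FPKM. SCN3B was at 5.179 FPKM there against 0.1877 to 0.5634 FPKM and KCNN2 at 1.098 FPKM against 0.406 to 0.492 FPKM. In SOL LHFD 4, KCNF1 was at 29.26 FPKM against 5.962 to 7.432 FPKM, KCND2 at 3.782 FPKM against 0.2522 to 0.454 FPKM and ANO8 at 150.1 FPKM against 304.3 to 333.8 FPKM.

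In other SOL libraries, CLCN3 stood low in SOL SHFD 1 (6.219 FPKM), and ANO5 stood high in SOL SHFD 2 (21.39 FPKM). SOL CONT 1 stood high for CACNA2D1 (37.07 FPKM) and SCN4B (37.96 FPKM).

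Among PEM libraries, PEM LHFD 1 was high for ANO10 (4.864 FPKM) and low for SCN4B (4.21 FPKM), and PEM CONT 2 was low for ANO8 (519.3 FPKM). CACNA1S was high in PEM CONT 4 (83.77 FPKM), KCNN2 in PEM CONT 3 (1.085 FPKM), SCN4A in PEM SHFD 1 (43.37 FPKM), and KCNK3 and KCNG2 in PEM SHFD 4 (2.066 and 6.137 FPKM). KCND2 in PEM SHFD 2 (0.06816 FPKM) and KCND3 in PEM SHFD 1 (0.4698 FPKM) were the highest of their groups at levels under 1 FPKM.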

How the results depend on the processing

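Of 92 calls over all 11 comparisons, 69 held under all 32 alternatives, 23 were lost under at least 1 and 0 changed sign. Of 85 calls between muscles, 66 held throughout. The genes called in all 3 diets under every alternative were 16, among them ANO6, CACNA1S, KCNC1, KCNC2, KCNF1, KCNG2, KCNH2, KCNH6, KCNJ5, KCNK1, KCNK15, KCNK3, KCNMA1, KCNN1 and SCN4B. No share of all genes tested is given for this count, so it is a description. The 16 include genes that passed the filter only through the muscle where they are high. Of those named, these were KCNC1, KCNC2, KCNF1, KCNH6, KCNJ5 and KCNK15 through SOL and KCNK1 through PEM. Their calls are a description and support nothing. BEST3 kept its 4 diet calls except LHFD against SHFD in SOL in 1 setting, given with its result.

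Omitting 1 library at a time gave 28 to 35 channel genes between muscles under CONT, 23 to 28 under SHFD and 24 to 31 under LHFD. For SHFD against CONT it gave 0 to 1 in PEM and 0 to 2 in SOL. For LHFD against CONT it gave 1 to 4 in PEM and 1 to 2 in SOL, and for LHFD against SHFD 1 to 1 in PEM and 1 to 2 in SOL. For both differences of effects it gave 0 to 0. LHFD against CONT in PEM gave 1 without PEM LHFD 1, PEM LHFD 3, PEM LHFD 4, PEM CONT 1 or PEM CONT 3, and 2 came without SOL SHFD 4 in SOL for SHFD against CONT and LHFD against CONT (SCN3B being the added gene).

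SHFD against CONT in PEM gave 1 without PEM CONT 2 and PEM LHFD 1 together. LHFD against CONT in PEM gave 1 with no expression filter and 1 with only the groups compared. SHFD against CONT in SOL gave 0 with a pseudocount of 0.1, with no filter, with only the groups compared and with the replicate block. LHFD against SHFD in SOL gave 2 with quantile normalization, with an equal nuclear-encoded sum and without PEM CONT 2 and PEM LHFD 1, and 0 without SOL LHFD 4, SOL SHFD 4 and SOL CONT 3 together, an alternative chosen after seeing the data. The cause of these changes was not tested.

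With the replicate number as a block, the counts between muscles were 32, 27 and 26 under CONT, SHFD and LHFD: KCNJ11 was called under SHFD (0.45, adjusted p = 0.0239) and CACNB4 was not called under LHFD (0.43, 0.0509). ANO10 was not called for SHFD against CONT in SOL (-0.62, 0.0611). After group means were subtracted, same-numbered SOL and PEM libraries of a diet correlated at -0.119 to 0.362 (mean 0.121, 12 pairs). Other-numbered ones of the same diet correlated at -0.247 to 0.331 (mean -0.040, 36 pairs). The mean was higher for the same number, but the ranges overlapped, so these values do not settle whether the numbers pair the libraries. The labels do not say so either, and the main fit used no pairing. Depth is unknown, so no counting error can be given. Some genes were not called in the full set of libraries and were called without 1 library; CLCN1, CLCN4, KCNE4, KCNJ2, KCNT1 and SCN4A, called in no diet between muscles, are described with their results. For genes called in some diets, CACNA2D1, KCNJ11, KCND2, KCND3, KCNH7, CLCN7, CACNB4 and SCN3B gained a call in a further diet on leaving out 1 library.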
